A study of Mus musculus with 84 samples.

Results

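The trimethyl mark on lysine 27 of histone H3 (H3K27me3) was followed at gene promoters of mouse epididymal adipocytes after a long high-fat diet. Of the 84 libraries in the series, 4 were H3K27me3 libraries of this comparison. The HH mice, replicates 2 and 3, had eaten a high-fat diet for 25 weeks and were 31 weeks old. The CC_l mice, replicates 1 and 2, were 31 weeks old and had stayed on low-fat chow. The labels call the replicates of a group biological replicates. Both groups carried the AdipoERCre and NuTRAP alleles, and both had received tamoxifen before the diets began, so the controls shared the induced label. In this model a Cre recombinase active in adipocytes switches on a biotin tag on their nuclei and a green fluorescent protein on their ribosomes, and the tagged nuclei were pulled from frozen fat. CUT&Tag was then used, in which an antibody steers a transposase to the marked chromatin and the released fragments are sequenced. The other 16 H3K27me3 libraries came from 6 groups of the same cross. C mice were chow-fed and 18 weeks old, and H mice of that age had eaten the high-fat diet for 12 weeks. CC_s mice were chow-fed and 26 weeks old, and HC mice of that age had eaten the high-fat diet for 12 weeks and then chow for 8. CCC mice were chow-fed and 39 weeks old, and HHC mice of that age had eaten the high-fat diet for 25 weeks and then chow for 8.

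H3K27me3 is written by polycomb repressive complex 2, whose catalytic subunit is EZH1 or EZH2, and it is bound by the CBX proteins of polycomb repressive complex 1. The mark sits on silent or weakly transcribed genes. In differentiated cells it is best known for holding regulators of other lineages, such as the Hox genes, in an inactive state, and at CpG-rich promoters it can lie beside the active mark H3K4me3.

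A promoter was taken as 2000 bp on either side of each annotated start site of a protein-coding gene, and it was called marked when an H3K27me3 peak overlapped it by at least 1 bp. This gave 21851 promoters with 41438 start sites. A promoter marked in both HH libraries and in neither CC_l library was called gained, and one marked in both CC_l libraries and in neither HH library was called lost. The promoter sequences below show what lay under the mark. They are the 250 bases before a start site in RefSeq (GRCm38.p6), written in the direction of the gene, with each CpG in capitals because CpG-rich DNA is a known landing site of polycomb complexes. The table of promoter sequences held 301 of the 435 gained or lost genes. At the 3 gained genes shown, a peak lay over these bases in both HH libraries.
Rarg (chr15:102257523-102257772, minus strand): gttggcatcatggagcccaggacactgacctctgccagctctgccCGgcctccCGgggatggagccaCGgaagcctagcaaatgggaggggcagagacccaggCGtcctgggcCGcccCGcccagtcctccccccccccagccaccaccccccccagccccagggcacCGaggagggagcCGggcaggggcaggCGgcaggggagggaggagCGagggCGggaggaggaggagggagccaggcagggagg
Acot1 (chr12:84009252-84009501, plus strand): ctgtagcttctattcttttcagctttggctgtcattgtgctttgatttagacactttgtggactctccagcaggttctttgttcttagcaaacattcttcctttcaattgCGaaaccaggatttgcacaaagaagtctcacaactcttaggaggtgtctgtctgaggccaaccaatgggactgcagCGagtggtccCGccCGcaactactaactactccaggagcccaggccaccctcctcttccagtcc
Kif6 (chr17:49614922-49615171, plus strand): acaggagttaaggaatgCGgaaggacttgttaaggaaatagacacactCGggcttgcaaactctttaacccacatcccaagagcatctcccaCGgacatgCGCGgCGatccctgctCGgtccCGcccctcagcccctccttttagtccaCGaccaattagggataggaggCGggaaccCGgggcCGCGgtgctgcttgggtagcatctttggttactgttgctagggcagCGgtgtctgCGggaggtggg
At the 4 lost genes shown, a peak lay over these bases in both CC_l libraries.
Ggta1 (chr2:35461450-35461699, minus strand): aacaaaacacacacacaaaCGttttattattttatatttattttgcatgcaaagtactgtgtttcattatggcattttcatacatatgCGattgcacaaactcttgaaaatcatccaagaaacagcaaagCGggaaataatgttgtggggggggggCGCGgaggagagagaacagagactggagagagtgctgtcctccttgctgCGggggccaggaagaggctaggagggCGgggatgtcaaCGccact
Blnk (chr19:40994222-40994471, minus strand): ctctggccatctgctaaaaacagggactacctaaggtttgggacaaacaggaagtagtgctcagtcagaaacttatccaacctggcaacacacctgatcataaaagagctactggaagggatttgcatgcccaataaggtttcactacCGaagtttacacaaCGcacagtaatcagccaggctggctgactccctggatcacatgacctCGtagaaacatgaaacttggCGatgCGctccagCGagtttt
Ptger4 (chr15:5244188-5244437, minus strand): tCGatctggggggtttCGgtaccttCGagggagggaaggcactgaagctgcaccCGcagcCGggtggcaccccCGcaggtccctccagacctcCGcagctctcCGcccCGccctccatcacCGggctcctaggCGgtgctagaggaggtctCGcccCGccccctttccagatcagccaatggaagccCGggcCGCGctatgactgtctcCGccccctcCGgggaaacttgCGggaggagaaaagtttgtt
Elk3 (chr10:93311160-93311409, minus strand): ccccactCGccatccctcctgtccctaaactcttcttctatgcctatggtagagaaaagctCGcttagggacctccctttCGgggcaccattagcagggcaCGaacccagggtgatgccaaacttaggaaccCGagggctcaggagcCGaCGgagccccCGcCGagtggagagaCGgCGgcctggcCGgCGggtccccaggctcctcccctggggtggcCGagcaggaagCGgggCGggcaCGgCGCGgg
Hoxa9 is shown for contrast because a peak covered it in all 4 libraries.
Hoxa9 (chr6:52227371-52227620, minus strand): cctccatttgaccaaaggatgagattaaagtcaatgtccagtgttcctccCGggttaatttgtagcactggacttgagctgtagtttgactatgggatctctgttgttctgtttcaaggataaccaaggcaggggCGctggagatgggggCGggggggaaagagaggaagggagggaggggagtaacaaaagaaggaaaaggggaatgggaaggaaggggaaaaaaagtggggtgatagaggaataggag
These stretches held 11, 4 and 15 CpGs for Rarg, Acot1 and Kif6 and 8, 6, 19 and 19 for Ggta1, Blnk, Ptger4 and Elk3. The Hoxa9 stretch held 3, although it was covered in every library. Over the 32851 promoter sequences of that length in the table the median was 6 CpGs, and 92.1% held at least 1.

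In overall H3K27me3 the libraries of the 2 diets overlapped. HH replicates 2 and 3 had 39524 and 35970 peaks over 101 and 50.1 Mb, and CC_l replicates 1 and 2 had 40549 and 37742 peaks over 110 and 69.3 Mb. Thus 1 library of each group, HH replicate 2 and CC_l replicate 1, had the broader peaks, with median widths of 1831 and 1856 bp against 1071 and 1334 bp. The number of marked promoters was 5632 and 4768 in HH (mean 5200 ± 611, SD, n = 2) and 5917 and 4276 in CC_l (5097 ± 1160, SD, n = 2). The groups overlapped in all 5 summary measures, with 2-sided exact permutation p of 0.667 for peak number, covered length, width and share of peaks at promoters, and 1 for marked promoters. With 2 libraries against 2 the smallest p that can be reached is 0.333, and the single promoter calls therefore carry no test. The peak lists hold no read totals, so the depth behind a missing peak is unknown, and a missing peak means only that no peak was called there.

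In all, 229 promoters were gained, 1.05% of all 21851, and 206 were lost, 0.943%. Of the 7875 promoters marked in at least 1 library, these were 2.91% and 2.62%. A further 2947 promoters (13.5% of all) were marked in all 4 libraries and 13976 in none, and 4493 had another pattern. A call that asks for fewer libraries is easier to meet, and with 1 of the 4 libraries left out the gains numbered 362 (without CC_l replicate 2), 630 (without HH replicate 2), 894 (without HH replicate 3) and 930 (without CC_l replicate 1). The losses numbered 1161, 543, 329 and 530 in the same order. Gains and losses sat in weaker peaks than the constant polycomb targets. Each peak was ranked within its own library by summed signal, because the deposited signal is not scaled between libraries. The median percentile of the peaks at gained promoters was 61.1 in HH replicate 2 and 39.1 in HH replicate 3, and that at lost promoters was 60.9 in CC_l replicate 1 and 47.6 in CC_l replicate 2. At promoters marked in all 4 libraries the medians lay between 89.5 and 92.8. At 67 gained promoters (29.3%) and 85 lost promoters (41.3%) a library of the other group had a peak within 5000 bp of the start site, and at 82 and 59 promoters no such peak lay within 20 kb. Some calls lay at the limit of the window. At the gained gene Marcksl1 the HH replicate 3 peak covered 4 bp of it and at the lost gene Vmn1r85 the CC_l replicate 2 peak covered 3 bp, whereas the nearest CC_l replicate 1 peak at the gained gene Cpeb1 lay 2008 bp from the start site, just outside.

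Metabolic genes were among the gains. They were counted in a list of lipid and glucose metabolism genes. Like the other gene lists, it was chosen with earlier results of these data known. Of its 141 promoters, 10 were gained and 0 were lost, that is 7.09% gained against 1.05% of all promoters. Among them were genes of sugar entry, with the glucose transporters Slc2a3 (GLUT3) and Slc2a4 (the insulin-responsive GLUT4) and the fructose transporter Slc2a5. Genes of fatty acid handling were gained as well, with the transport protein Slc27a3, the desaturases Fads2 and Scd3, the thioesterase Acot1, the peroxisomal oxidase Acox2 and the phosphatidate phosphatase Lpin3. Calls made without HH replicate 3, or without CC_l replicate 1, put 17 genes of the list among the gains in either case. Gains over all promoters rose more steeply in these settings, from 229 to 894 and 930, so the list stood out less there.

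The strongest of the 10 was Slc2a3 (chromosome 6, 122727809 to 122801640, minus strand). Peaks covered 3506 bp of its window in HH replicate 2 and 2579 bp in HH replicate 3 and none in either CC_l library, whose nearest peaks lay 33944 and 114552 bp away. Acox2 (chromosome 14, 8225511 to 8259353, minus strand) had 1777 and 2974 bp covered in HH and 0 in CC_l, with no CC_l peak nearer than 27154 bp. Both genes were thus clear of polycomb peaks in both chow-fed mice over a distance well beyond the promoter. At Slc2a4 the covered length was 1865 and 1433 bp in HH, with the nearest CC_l peaks at 13854 and 15775 bp. H3K4me3 peaks were present at Slc2a4 in both HH and both CC_l libraries, as were H3K27ac peaks in 3 of 3 HH and 2 of 2 CC_l libraries. Peaks of active marks and of H3K27me3 were thus both called at this promoter in HH. In pools of nuclei this does not show that they lay in the same nuclei. Acot1, whose sequence is shown above, had 2821 and 1705 bp covered in HH, and its H3K4me1 peak was found in 2 of 2 CC_l and 0 of 3 HH libraries. Fads2 had 3143 and 747 bp covered in HH, although the HH replicate 3 peak ranked only at percentile 9.63 of that library.

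Other metabolic genes outside that list were also gained, and they were picked here after their values were seen. The neighbouring apolipoprotein genes Apoa1 and Apoa4 had 804 and 1428 bp covered in HH replicate 2 and 170 and 834 bp in HH replicate 3. The retinol dehydrogenase genes Rdh1 and Rdh16f1, whose windows overlap, share their peaks and count as 1 locus. Among nuclear receptors, 2 of 47 promoters were gained (4.26%, against 1.05% of all) and 0 lost, a list too short for its share to be read. The 2 gained were Rarg, a retinoic acid receptor, and Esrra, a regulator of mitochondrial genes. Rarg had 2714 and 1249 bp covered in HH, and Esrra 306 and 839 bp. Cbx7, which encodes a reader of H3K27me3, was the only gain among 35 polycomb and H3K27 demethylase genes, with 1893 and 1100 bp covered in HH and none in CC_l.

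The strength rule, which ordered the called promoters by the lower of their 2 peak ranks, put Slc4a9, an anion exchanger gene, first among the gains. Its peaks ranked at percentiles 94.6 and 96.6 in HH, but CC_l peaks lay only 3172 and 2392 bp from the start sites. Zkscan16, a zinc-finger gene, followed with 3400 and 1737 bp covered in HH and CC_l peaks no nearer than 51019 bp. The others were Abca14, a transporter gene, Grin3b, an NMDA receptor subunit gene, Slc2a3, the kinase gene Dmpk, the X-linked neuronal gene Nexmif, the transcriptional cofactor gene Cited4, the serine protease gene Tmprss9, Acox2, the adaptor gene Lurap1 and Tmem246, a gene of glycolipid anchor synthesis. The Abca14 window overlaps that of Crym, so the mark cannot be assigned to 1 of the 2 genes. The covered length at these 12 promoters ran from 1433 to 3717 bp in HH replicate 2 and from 55 to 2974 bp in HH replicate 3. At Nexmif no CC_l peak lay nearer than 321210 bp.

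**Figure D1:**
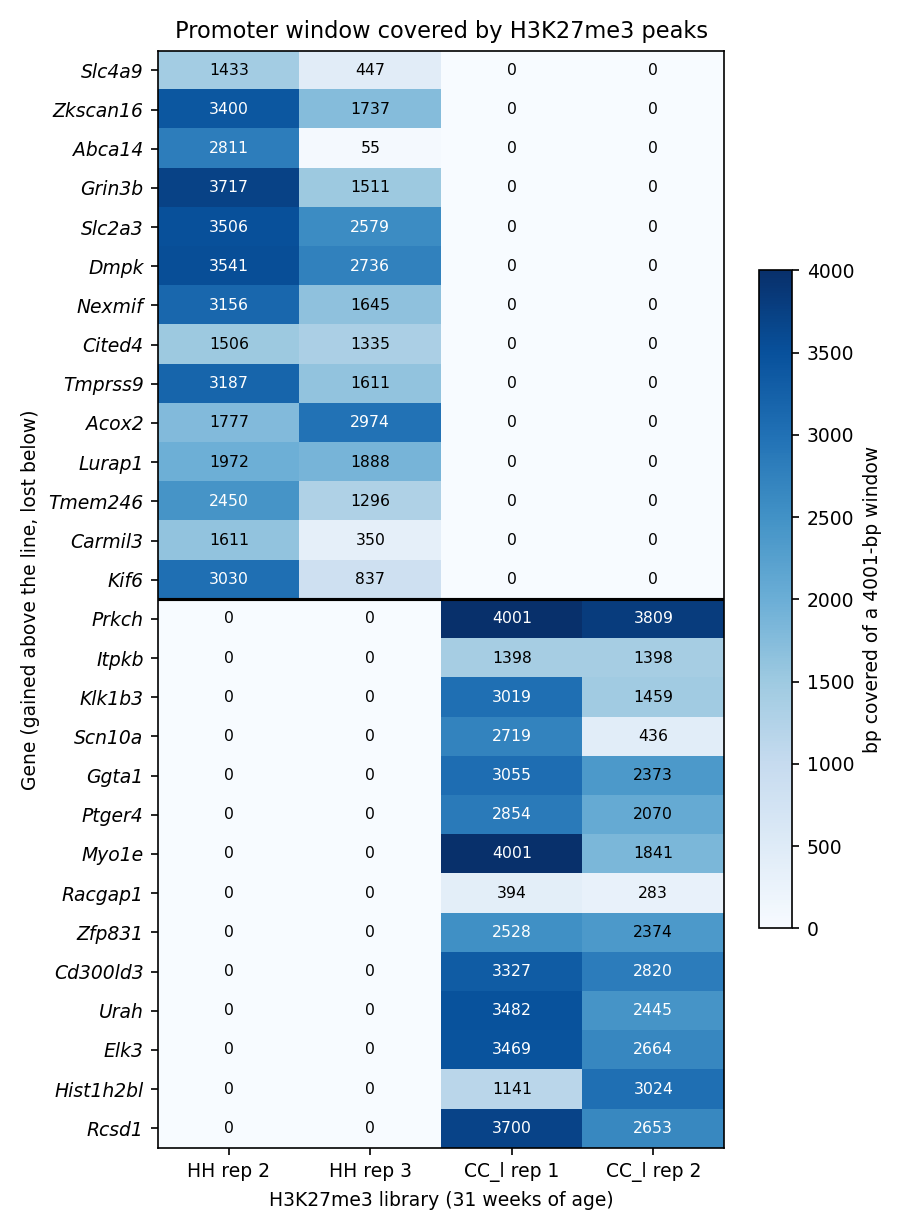
Base pairs of the best-covered 4001-bp promoter window lying under H3K27me3 peaks, for the 14 named gained genes (above the line) and the 14 named lost genes (below), in each of the 4 libraries. The zeros follow from how the genes were chosen, and the covered length varies from 55 bp (Abca14, HH replicate 3) to the whole window (Prkch and Myo1e, CC_l replicate 1).

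Some of the lost promoters belonged to genes of blood cells. They are described through a list of 80 haematopoietic signalling and cytoskeletal genes that was drawn up after the called genes had been seen, so its count is not evidence that such genes were lost more often than others. It held 14 lost and 0 gained promoters, and the lost count was 7 in windows of 500 bp on either side and 9 when no HH peak was allowed within 5000 bp. It included the kinases Lyn, Tec, Txk and Prkch, which carry signals from lymphocyte and myeloid receptors. Also in it were the B cell adaptor Blnk, the lymphocyte surface protein Ly9, the sialic acid receptor Cd33, the transcription cofactor Lmo2, the actin bundling protein Lcp1, the raft protein Rftn1, the exchange factors Dock8 and Dennd1c, and the actin regulator Rcsd1.

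Prkch (chromosome 12, 73584796 to 73778185, plus strand) had the strongest lost peak. Peaks covered 4001 and 3809 bp of its window in CC_l and none in HH, where the nearest peaks lay 17825 and 10094 bp away. At Rcsd1 the covered length was 3700 and 2653 bp in CC_l, and at Rftn1 it was 2661 and 2311 bp. Lcp1 had 1740 and 2392 bp covered in CC_l, although an HH replicate 2 peak lay 2519 bp from a start site. Lyn had 1328 and 950 bp covered in CC_l and no HH peak nearer than 161513 bp. It was marked in 0 of the other 16 libraries, whereas Rcsd1 and Rftn1 were each marked in 7 of 8 chow libraries and 0 of 8 libraries from mice that had ever eaten the high-fat diet. Prkch was marked in 8 of these 8 chow libraries but also in 5 of the 8 high-fat ones.

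Several of these promoters carried active marks that were present in HH and missing in CC_l. Blnk, Cd33, Dock8 and Lcp1 had an H3K4me1 peak in 3 of 3 HH libraries and 0 of 2 CC_l libraries. At Prkch the H3K27ac peak was found in 3 of 3 HH and 0 of 2 CC_l libraries, as it was at 1 other lost promoter, Nfkbid (0.971% of the 206 against 0.448% of all). Such an H3K4me1 pattern was seen at 10 of the 206 lost promoters (4.85%) against 2.00% of all promoters. The remaining 6 were Ggta1, Cfap45, Lrrk1, Gpr132, B230104I21Rik and Gm10160. The reverse pattern at gained promoters, an active mark in every CC_l library and in no HH library, was met for H3K27ac at Apoa1 and Acox2, 0.873% of 229 against 0.403% of all promoters. It was met for H3K4me1 at 3 gained promoters, Slc2a5 and Acot1 among them (1.31% against 0.705%), and for H3K4me3 at Nexmif, Hils1, Rps6kl1, Aifm3 and Kcne1l (2.18% against 0.481%). With the H3K4me3 groups taken from the library titles, a peak in 2 of 2 HH and 0 of 2 CC_l libraries was found at 4 lost promoters, Clec4a3, Abca4, Vsig2 and Gm10160 (1.94% against 1.32%). Active marks also went the same way as H3K27me3. Among gained promoters, an H3K4me1 peak in every HH and no CC_l library was found at Slc27a3, Il16, Hspa2 and Slc11a2 (1.75% against 2.00%) and an H3K4me3 peak at Gpr35 and Apol8 (0.873% against 1.32%). Among lost promoters, an H3K4me1 peak in every CC_l and no HH library was found at A030005K14Rik and Krtap28-13 (0.971% against 0.705%).

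Outside that list, the strength rule named Itpkb, an inositol phosphate kinase gene, the kallikrein gene Klk1b3, the sodium channel gene Scn10a, Ggta1, Ptger4, the myosin gene Myo1e, the cytokinesis gene Racgap1, Zfp831, the CD300 family receptor gene Cd300ld3, Urah, a gene of urate breakdown, and Elk3, an ETS transcription factor gene. Ggta1 encodes the galactosyltransferase that makes the alpha-gal sugar (chromosome 2, 35400179 to 35463231, minus strand). Peaks covered 3055 and 2373 bp of its window in CC_l, and the nearest HH peaks lay 44615 and 19057 bp away. Ptger4, the EP4 receptor for prostaglandin E2, had 2854 and 2070 bp covered in CC_l and no HH peak nearer than 867081 bp. Elk3 had 3469 and 2664 bp covered in CC_l and no HH peak nearer than 176458 bp. All 3 sequences above were therefore covered in both chow-fed mice and lay far from any peak in both HH mice. Racgap1 was a weaker case, with 394 and 283 bp covered in CC_l and HH peaks 2389 and 2214 bp from a start site.

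Cell adhesion genes were lost in clusters. Of 158 integrin, cadherin, protocadherin and claudin promoters 11 were lost (6.96%, against 0.943% of all promoters) and 0 gained, and these were Pcdh15 and 10 genes of the Pcdha and Pcdhb clusters on chromosome 18, which neighbour one another and do not count as separate events. The covered length of the 10 ran from 609 to 2783 bp in CC_l replicate 1 and from 391 to 2035 bp in CC_l replicate 2. The count rested on the setting, with 3 losses in windows of 1000 bp on either side and 39 when CC_l replicate 2 was left out. Without that library the losses over all promoters rose as well, from 206 to 1161. A histone cluster on chromosome 13 gave 3 more losses with overlapping windows, Hist1h2bl, Hist1h2ai and Hist1h3h. Over all losses, the 206 promoters fell into 188 loci when promoters within 50 kb were joined, and 33 of them sat in loci of 2 or more. The 229 gained promoters were more scattered by count, at 216 loci.

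Immune genes gave small counts in both directions, to be read against 0.943% of all promoters lost and 1.05% gained. In the list of innate immune receptors and myeloid genes 3 of 135 were lost (2.22%, Clec4a3, Cd300ld3 and Cd300ld4) and 0 gained, and in that of MHC and lymphocyte genes 4 of 105 were lost (3.81%), with Gzmd, H2-Eb2 and Blnk among them, and 0 gained. Of 172 chemokine, cytokine and receptor promoters 8 were gained (4.65%) and 1, Il1rap, was lost (0.581%). The 8 were the ligands Tnfsf15, Il16, Csf2, Il9 and Il17d and the receptors Crlf2, Ccr7 and Lifr. Ccr7, which guides lymphocytes and dendritic cells to lymph nodes, had 2388 and 878 bp covered in HH and no CC_l peak nearer than 33496 bp. The gain at Lifr, the receptor for leukaemia inhibitory factor, rested on low-ranking peaks, at percentiles 6.85 and 1.26.

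The next lists are again set against 1.05% of all promoters gained and 0.943% lost. Solute carriers gave 10 gains (2.67%) and 1 loss (0.267%) among 375 promoters, and 4 of the 10 are the sugar and fatty acid transporters named above. Extracellular matrix genes gave 6 gains (3.66%) and 3 losses (1.83%) among 164, with Spp1 (osteopontin) and Sparcl1 among the gains and Thbs1 (thrombospondin) and Mfap5 among the losses. In the Wnt pathway 2 of 74 promoters were gained (2.70%, Dixdc1 and Fzd3) and 1 lost (1.35%, Fzd6). The axon guidance genes Sema4a, Sema3c and Ephb4 were gained, 3 of 80 (3.75%) with 0 lost. Keratin genes gave 5 losses (4.76%) and 0 gains among 105, and olfactory and vomeronasal receptor genes 18 losses and 7 gains among 1434, or 1.26% and 0.488%.

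Of 270 developmental transcription factor promoters, the classical targets of polycomb, 203 (75.2%) were marked in all 4 libraries and so could not be called. Among the 270, 2 were gained (0.741%, Snai3 and Ascl4) and 0 were lost, near the 1.05% and 0.943% of all promoters. All 39 Hox promoters were marked in at least 1 library and 24 in all 4, with 0 gained and 0 lost, and per library 36 and 32 were marked in HH and 38 and 25 in CC_l. Other lists were too short or too near those shares to read. Notch, hedgehog and FGF signalling genes gave 0 calls among 70, cytochrome P450 genes 0 among 93, and cell cycle inhibitors and senescence genes 0 among 19. The TGF-beta, BMP and activin pathway gave 1 gain (Bmp10) among 76, zinc-finger genes 5 gains and 1 loss among 458, ion channel genes 1 and 2 among 184, and neurotransmitter receptor genes 1 and 1 among 113. Adipocyte identity and adipogenic genes gave 0 gains and 0 losses among 53. They were marked at 19 and 15 promoters in HH and at 24 and 8 in CC_l, so these 2 groups overlapped. The other mice did not overlap on this list, with 16 to 30 marked in HHC against 5 to 8 in CCC. The counts were 11 to 14 in H against 5 to 9 in C, and 9 to 18 in HC against 6 to 8 in CC_s. Shares over all promoters in the same libraries are given below.

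The lists were then read in every H3K27me3 library, and only some of them are given here. Lipid and glucose metabolism promoters were marked at 41 and 33 of 141 in HH and at 33 and 15 in CC_l, where the lower HH and the higher CC_l library tied. In the other mice the counts were 26 to 38 in HHC against 15 to 18 in CCC, 22 to 25 in H against 10 to 14 in C, and 14 to 28 in HC against 11 to 13 in CC_s, with no overlap in any of the 3 pairs. Over all promoters each of these pairs overlapped, with 20.5 to 26.0% marked in HHC against 17.9 to 20.9% in CCC. The shares were 14.7 to 15.6% in H against 13.8 to 17.3% in C, and 10.3 to 17.8% in HC against 15.1 to 16.4% in CC_s. The haematopoietic list was marked at 17 and 16 of 80 in HH and at 36 and 36 in CC_l. The counts were 13 to 20 in HHC against 28 to 33 in CCC, 11 to 14 in H against 21 to 22 in C, and 10 to 12 in HC against 15 to 29 in CC_s. As the haematopoietic list was drawn up after the calls, its gap between HH and CC_l follows in part from that choice. In the libraries not used for the calls it was below its chow-fed controls at each age. The list of innate immune receptors and myeloid genes overlapped between HH (25 to 38) and CC_l (34 to 42). It was lower in the other high-fat groups, at 29 to 38 in HHC against 39 to 43 in CCC. Its counts were 10 to 13 in H against 24 to 31 in C, and 10 to 20 in HC against 25 to 36 in CC_s. Such gaps were not particular to these lists. Keratin promoters were marked at 14 to 16 in H against 31 to 38 in C, and 8 to 28 in HC against 29 to 37 in CC_s. HHC (30 to 40) and CCC (31 to 37) overlapped there. Wnt pathway promoters were marked at 48 to 59 in HHC against 38 to 43 in CCC, and 46 to 49 in H against 31 to 42 in C. For that list HC (30 to 45) and CC_s (38 to 40) overlapped.

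**Figure D2:**
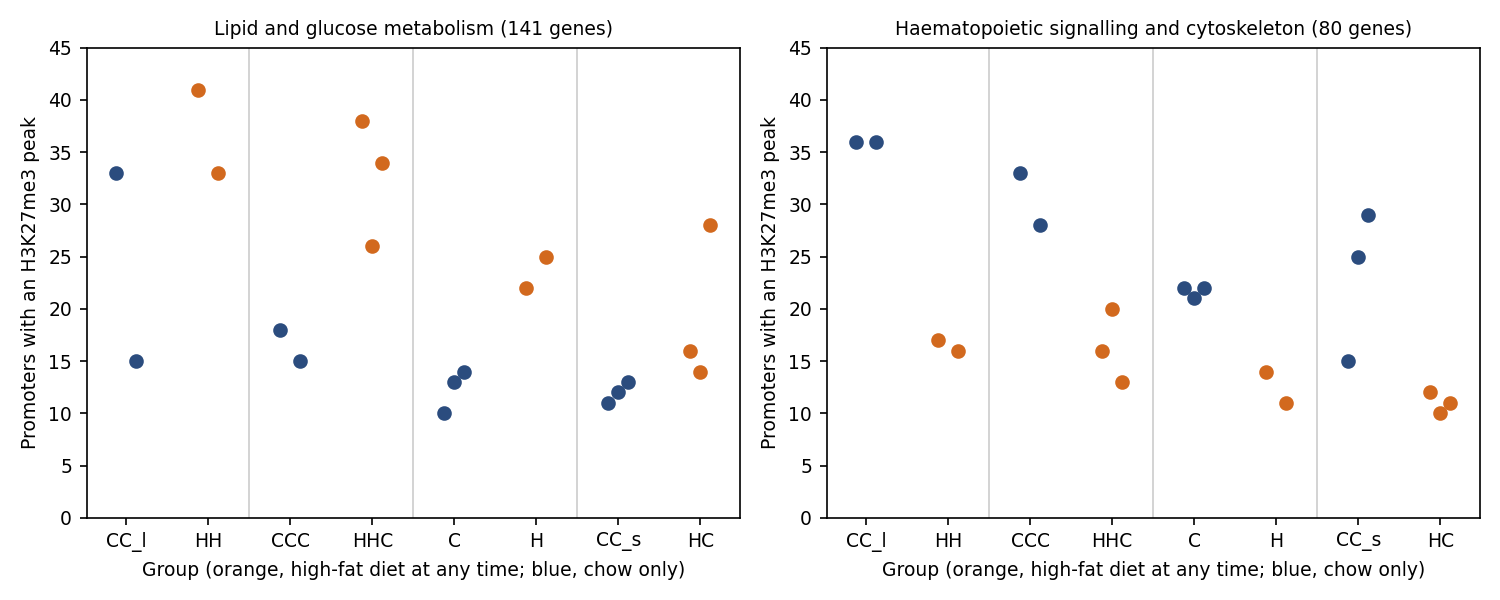
Number of promoters with an H3K27me3 peak in each of the 20 libraries, by group, for the lipid and glucose metabolism list (left) and the haematopoietic list (right), 1 point per library, with vertical lines between ages. On the left the HH libraries (41 and 33) and CC_l libraries (33 and 15) touch and the other 3 pairs are apart. On the right every high-fat group lies below its chow-fed control, but the HH and CC_l gap follows in part from how that list was drawn up.

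Libraries that the calls had not used showed the same directions at the called promoters as a whole. Gained promoters carried a peak in HHC at a mean share of 50.2% ± 21.8 (SD, n = 3), against 21.4% ± 8.03 (SD, n = 2) for CCC. The single values were 72.1, 28.4 and 50.2% in HHC against 27.1 and 15.7% in CCC, so the lowest HHC library lay just above the highest CCC library. In H the share was 27.5 and 33.6% against 5.68 to 14.8% in C, and in HC it was 10.9 to 29.7% against 7.42 to 10.0% in CC_s. Lost promoters had a mean share of 31.9% ± 8.63 (SD, n = 3) in HHC, against 53.9% ± 3.43 (SD, n = 2) for CCC. They were marked at 8.74 and 12.6% in H against 31.6 to 45.6% in C, and at 11.7 to 20.4% in HC against 36.4 to 51.9% in CC_s. Both sets of differences depended on single libraries. With the losses called without CC_l replicate 2, the mean of HHC minus that of CCC went from -22.0 to 4.90 percentage points, that of H minus C from -26.1 to -3.86 and that of HC minus CC_s from -28.8 to -4.31. For the gains, HHC minus CCC was 28.8 percentage points, and 16.6 without HH replicate 2 and 17.7 without CC_l replicate 2. H minus C was 20.8, and between 9.07 and 14.1 without HH replicate 2, HH replicate 3 or CC_l replicate 2. HC minus CC_s was 9.02, and 4.50 without HH replicate 2, 4.88 without CC_l replicate 2 and 15.7 without CC_l replicate 1. Over all promoters the mean shares were 22.8% in HHC and 19.4% in CCC, 15.2% in H and 15.1% in C, and 14.4% in HC and 15.9% in CC_s. The peaks of H and HC covered less of the genome, with 8.54 to 36.3 Mb against up to 64.1 Mb in C and CC_s, whose narrowest library was still above that range, and the part of this in the lower shares was not tested. At promoters marked in all 4 libraries the mean share was 71.0% in H against 84.3% in C.

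**Figure D3:**
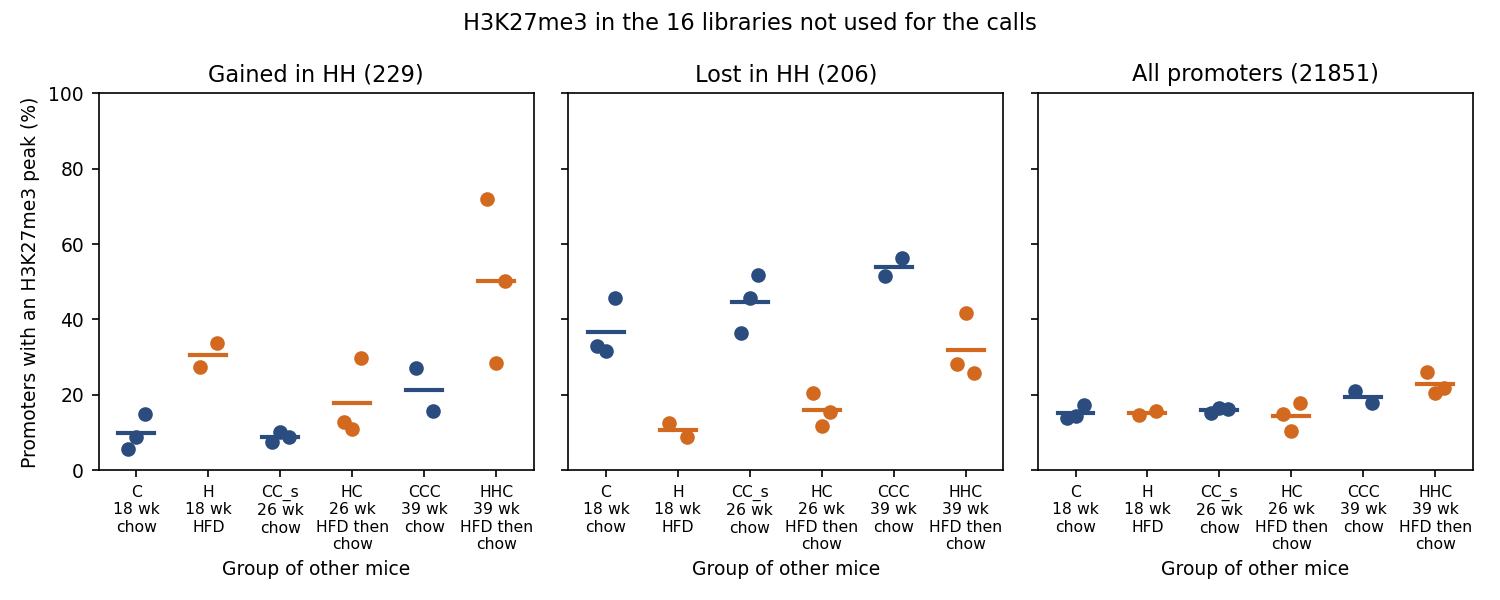
Percentage of the gained, the lost and all promoters with an H3K27me3 peak in the 16 libraries not used for the calls, with 1 point per library and a line at the mean of each group. The high-fat groups (orange) lie above the chow-fed group of the same age (blue) for gained promoters and below it for lost promoters, while over all promoters H and C have means of 15.2 and 15.1%.

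Counted by gene, 176 of the 229 gained promoters (76.9%) were marked in more of the 8 other libraries with high-fat diet than of the 8 other chow libraries, 27 in fewer and 26 in as many. For the 206 lost promoters, 137 (66.5%) were marked in more chow libraries, 28 in fewer and 41 in as many. Of all 21851 promoters, 4586 had more high-fat libraries marked and 3146 more chow libraries, most promoters being marked in none. Promoters marked in all 4 libraries of the comparison also leaned to chow, with more chow libraries at 1451 of 2947 (49.2%) and more high-fat libraries at 424 (14.4%), so the lean of the lost promoters is to be read against theirs. Dixdc1, a positive regulator of Wnt signalling, had the widest margin among the gains, with 7 of 8 high-fat and 0 of 8 chow libraries marked. Dusp14, a phosphatase gene, and Eppk1, a cytoskeletal linker gene, followed with 6 against 0. Among the losses Ggta1 was marked in 0 of 8 high-fat and 8 of 8 chow libraries. B230104I21Rik, Rcsd1 and Rftn1 stood at 0 against 7, and Elk3 at 0 against 6. These genes were picked from the counts, which are descriptions.

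After 8 weeks back on chow, part of the called promoters kept the pattern in every library. A peak in 3 of 3 HHC and 0 of 2 CCC libraries was found at 16 gained promoters (6.99%, against 1.37% of all promoters). They were Zkscan16, Abca14, Cited4, Acox2, Carmil3, Kif6, Dixdc1, Vill, Olfr71, Eppin, Apoa1, Gchfr, Zfp385b, Eppk1, Nexn and Prr15l. The reverse, 2 of 2 CCC and 0 of 3 HHC libraries, was found at 25 lost promoters (12.1%, against 0.732%), led by Ggta1, Myo1e, Zfp831, Elk3, Hist1h2bl and Rcsd1 and holding also Rftn1, Lcp1, Tec, Ly9 and Clec4a3. Kif6, a kinesin gene whose sequence is shown above, had 3030 and 837 bp covered in HH, and Carmil3, an actin regulator gene, had 1611 and 350 bp. Rarg was among the gains not seen after the return to chow, with 0 of 3 HHC libraries marked.

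The active marks were next examined at the called promoters. By the study's methods they were assayed on nuclei of the same fat samples, so they are not other animals. For H3K4me3 the treatment field of 3 of the 4 libraries disagrees with the title, and the titles were used. Gained promoters carried H3K4me3 at 62.0% ± 1.85 (SD, n = 2) in HH and 61.8% ± 0.926 (SD, n = 2) in CC_l, and lost promoters at 36.4% ± 2.06 and 32.5% ± 1.37. Promoters with H3K27me3 in all 4 libraries lay between, at 51.2% and 50.6%, and those with it in none were at 67.1% and 66.5%. H3K27ac was found at 35.4 to 46.3% of gained promoters in HH and at 36.7 and 49.8% in CC_l, and at 33 to 68 of the 206 lost promoters in HH and 21 and 50 in CC_l. Thus H3K4me3 at lost promoters was the 1 measure of the 3 in which HH (72 and 78 promoters) and CC_l (65 and 69) did not overlap in that class, and with the groups set by the treatment field the mean in HH minus that in CC_l changed from 3.88 to -2.91 percentage points. Such a gap was not particular to lost promoters. Over all promoters H3K4me3 was at 63.3 and 63.8% in HH and at 62.8 and 62.8% in CC_l, also without overlap. H3K4me1 was found at 30 to 71 of the lost promoters in HH and at 30 and 33 in CC_l.

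**Figure D4:**
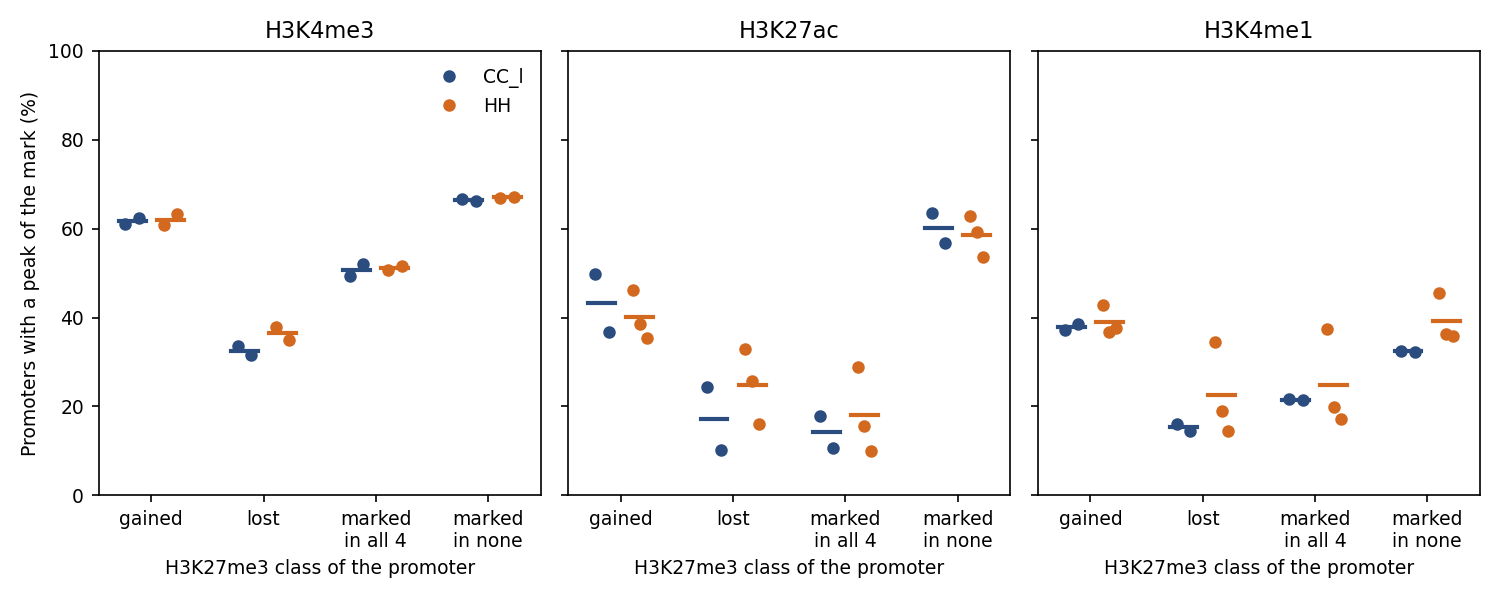
Percentage of promoters with a peak of H3K4me3, H3K27ac or H3K4me1 in the HH (orange) and CC_l (blue) libraries, by H3K27me3 class, with 1 point per library and a line at each mean. Gained promoters carry H3K4me3 at about 62.0% in HH and 61.8% in CC_l, above the lost promoters at 36.4 and 32.5%.

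Marker genes were used to check the labelled cell type. For H3K4me3 the groups were again set by the titles, with which the treatment field of most of these libraries disagrees. The marker counts were not repeated with that field. All 12 adipocyte markers, Adipoq and Plin1 among them, had H3K4me3 peaks in each HH and CC_l library, and 9 to 12 had H3K27ac in HH and 12 in CC_l. H3K27me3 lay at 3 and 1 of them in HH and at 5 and 1 in CC_l, and Adipoq was marked in all 4 libraries. Neuronal and epithelial markers carried H3K27me3 at 7 or 8 of 8 promoters in each of the 4 H3K27me3 libraries. Macrophage markers had H3K4me3 at 11 and 11 of 12 promoters in HH and at 4 and 4 of 12 in CC_l, and H3K27ac at 5 to 9 in HH and at 2 to 3 in CC_l. They had H3K27me3 at 4 and 0 in HH and at 6 and 1 in CC_l. Lymphocyte markers had H3K4me3 at 4 to 5 of 10 in HH and 1 to 2 in CC_l, and endothelial markers at 9 and 9 of 10 in HH and 8 and 4 in CC_l. These values moved with the loss of H3K27me3 at the haematopoietic and immune genes, and their part in it was not tested. In a pool of nuclei, a change in the mark within adipocytes and a change in the nuclei recovered cannot be told apart.

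CpG content was counted over 500 bp on either side of the start site, at the richest start site of each gene. The median was 4.00 CpGs per 100 bp at gained promoters (quartiles 1.40 and 6.79) and 1.90 at lost promoters (1.00 and 4.07). It was 5.49 at promoters marked in all 4 libraries and 4.70 over all promoters. Fewer than 2 CpGs per 100 bp were found at 82 of 229 gained promoters (35.8%) and 109 of 206 lost promoters (52.9%), against 14.3% of those marked in all 4 libraries and 31.8% of all. Both groups therefore held promoters of either kind. Lifr and Fzd3, gained, had 12.9 and 12.7 CpGs per 100 bp, and Dock8, lost, had 12.3, whereas Acox2 and Apoa4 had 0.999 and 0.899 and Cd300ld3 0.300.

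**Figure D5:**
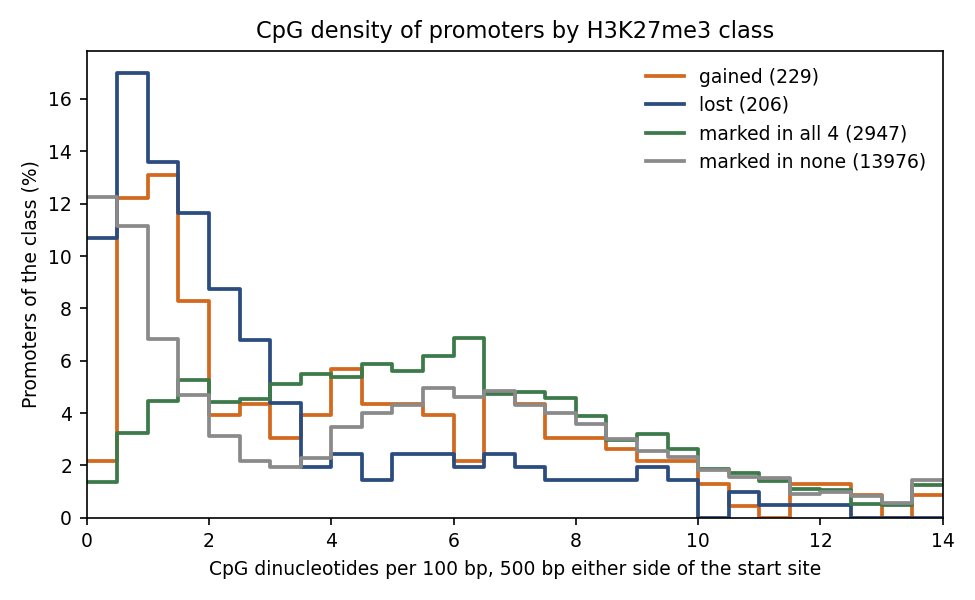
Share of promoters by CpG density, in steps of 0.5 CpGs per 100 bp, for gained, lost, always marked and never marked promoters, with all values above the last step placed in it. The lost promoters (median 1.90) gather at the low end and the promoters marked in all 4 libraries (median 5.49) are spread over higher densities.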

How the data were processed

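The 20 H3K27me3 peak lists and the HH and CC_l lists of H3K4me3, H3K27ac and H3K4me1 were used, 35 files in all. Per the submitters' processing notes, reads were trimmed (Trim Galore 0.6.6), aligned to mm10 (Bowtie2 2.4.4, SAMtools 1.13), turned into coverage (bedtools 2.30) and called per library with SEACR 1.3 in stringent mode at a threshold of 0.01. The authors deposited, for each peak, its position and its summed and highest coverage signal, unscaled between libraries. Peak lists hold no reads, so the count model of the study could not be run and the depth is unknown.

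Promoters were built from the GENCODE basic annotation of GRCm38, 2000 bp either side of each protein-coding start site. Peaks were overlapped in Python 3.11.15 (NumPy 2.4.6), with code tested on simulated peak lists. Groups came from the library titles. The members and gene lists were chosen with earlier results of these data known. Genes named were the 12 strongest in each direction by the lower of the 2 within-library peak ranks, and up to 6 each also called in HHC against CCC, leaving out predicted genes, together with members of the lists. Library summaries were compared by exact permutation tests with Benjamini-Hochberg adjustment over 5 measures (adjusted p of 0.833 for 4 measures and 1 for marked promoters). Windows, overlap, peak thresholds, joining and single libraries were varied. The 49 lists of other marks and groups were not used here. Some genes are not reported here.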

Additional observations from a re-analysis of the deposited data

Results flagged for a closer look

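At 2 of the genes considered, the order of the groups was opposite in 2 comparisons, and the difference was not tested. H3K27me3 was found at Nexmif in 2 of 2 HH and 0 of 2 CC_l libraries, but in 0 of 2 H and 3 of 3 C libraries. At Olfr1396, an olfactory receptor gene, it was found in 2 of 2 HH and 0 of 2 CC_l libraries, but in 0 of 2 H and 3 of 3 C libraries. At that gene 2 of 2 CCC and 1 of 3 HHC libraries were marked as well. Groups of 2 or 3 libraries were too small for the check for single libraries far from the others.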

How the results depend on the processing

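No paired analysis was possible because the groups share only replicate number 2 and the promoter calls come from no test. Of the 28 named genes, all 28 kept their call with 1 start site per gene, an equal number of peaks (35970 per library), joined peaks and without the weakest 20% of peaks, 27 with an overlap of at least 200 bp, 23 in windows of 1000 bp, 20 of 500 bp and 18 of 5000 bp on either side. Leaving out a library cannot end such a call, so it says nothing of their stability. With no peak of the other group allowed within 5000 bp 18 kept it and the losses numbered 121. The haematopoietic losses were then 9 and the losses in the cell adhesion list 6. In windows of 500 bp the haematopoietic losses numbered 7 and the cell adhesion losses 4. There, H3K4me3 at gained promoters in HH minus CC_l was 2.44 percentage points, and H minus C at gained promoters was 10.1. In windows of 1000 bp these last were 12.8 and the cell adhesion losses 3. Without the weakest 20% of peaks the cell adhesion losses were 7. The treatment field gave -2.91 for H3K4me3 at lost promoters. Leaving out 1 library at a time gave 362 to 930 gains and 329 to 1161 losses, with gains making up 23.8 to 73.1% of the calls. It gave 12 to 39 cell adhesion losses and 11 to 17 metabolic gains. H3K4me3 at lost promoters, HH minus CC_l, ran from 1.25 to 3.34 percentage points. At gained promoters H minus C ran from 9.07 to 27.5. At lost promoters H minus C ran from -27.6 to -3.86, HC minus CC_s from -29.3 to -4.31 and HHC minus CCC from -22.4 to 4.90. The share of gains among all calls, 52.6%, thus hung on single libraries. The signs of the library summary differences held in 21 of 30 alternatives, those of the shares in other mice in 77 of 78 and those of the other marks in 41 of 44. Depth is unknown and limits what a missing peak means.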

Other observations

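Some immune genes outside the lists were also lost, and they were picked after their values were seen. At Nfkbid, an inhibitor of the NF-kappaB pathway, H3K27me3 peaks covered 1985 and 578 bp of the window in CC_l and none in HH. An H3K27ac peak was present there in 3 of 3 HH and 0 of 2 CC_l libraries, and H3K27me3 in 0 of 8 other libraries with high-fat diet and 5 of 8 other chow libraries. The Nfkbid window overlaps that of Hcst, and the 2 genes cannot be told apart. At Ripk3, a kinase of necroptosis, 1629 and 3345 bp were covered in CC_l, with the nearest HH peaks at 3456 and 4810 bp, and 2 of 8 other high-fat and 7 of 8 other chow libraries were marked. Among the gains, Sema4a, a semaphorin of immune cells, had 3261 and 954 bp covered in HH and no CC_l peak nearer than 39840 bp.

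By chromosome, the X held 9 gained and 1 lost of 948 promoters, and chromosome 18 held 4 gained and 15 lost of 511, of which 10 were protocadherin genes. These counts are to be read against 1.05% of all promoters gained and 0.943% lost, and the gains on the X lay near that share. The other chromosomes were not singled out.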
